A study of Mus musculus with 6 samples.

Results

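Macrophages change their gene expression with the signals around them. In the usual shorthand, interferon-γ and bacterial products give an inflammatory (M1-type) state in which nitric oxide synthase and the co-stimulatory receptor CD86 rise, and interleukin-4 and interleukin-13 give an alternative (M2-type) state marked by arginase, the mannose receptor and scavenger receptors. Macrophages in tumors commonly carry genes of both states. The 9 genes described here are those usually used to read this balance. Cd86 and Nos2 stand for the inflammatory side, and Mrc1 (the mannose receptor, CD206), Arg1, Cd163, Msr1, Retnla, Chil3 and Stab1 for the alternative side. They were chosen by symbol, and each was found as 1 of the 22623 gene rows in all 6 matrices.

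The 6 libraries hold RNA counts of single nuclei from subcutaneous tumors that a mouse lung tumor line, TC1, formed in the flank. All tumors grew in MCT2 loxP/loxP; Cre+ mice on a C57BL/6 background, were implanted after injections begun at 8 weeks of age, and were taken on day 24. MCT2 knockout mice (MCT2 KO) received daily tamoxifen for 5 days to delete Slc16a7, the gene of the monocarboxylate transporter MCT2, and control mice (MCT2 CO) carried the same alleles and received vehicle without tamoxifen. Cre acted in the whole animal and TC1 cells were implanted, so the deletion was in host cells, and no group had tamoxifen without the floxed gene or without Cre. The labels give lung as the tissue of these flank tumors. Each group had 3 libraries. The study describes them as biological replicates, and the p-values measure the spread between them.

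Macrophage nuclei were taken as those with at least 1 UMI (unique molecular identifier, a counted molecule) of Adgre1 (F4/80), Cadm1 (an adhesion molecule) or Csf1r (the receptor of macrophage colony-stimulating factor). These macrophage-gated nuclei numbered 6082 of the 17514 nuclei kept after filtering, or 34.7%. The CO libraries held 861, 1014 and 642 of them and the KO libraries 1379, 487 and 1699. Gated nuclei made up 33.4 ± 3.92% of nuclei in the CO libraries against 35.4 ± 13.8% in the KO libraries (mean ± SD, n = 3 per group, two-sided exact permutation test, p 0.9), and KO replicate 3 alone reached 51.1%. The gated nuclei of a library held between 2450234 and 5175921 UMIs in all, with a median per nucleus of 1228 to 1597.

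Slc16a7 transcripts over all nuclei were not lower in KO: it had 123, 159 and 166 UMIs in CO replicates 1, 2 and 3 and 261, 106 and 351 UMIs in KO (log2 KO/CO 0.44, standard error 0.54, edgeR FDR 0.732). FDR stands here for a p-value adjusted over all genes by Benjamini and Hochberg, and standard errors are written SE. These sums include the implanted TC1 cells, in which the gene was not deleted, so they cannot show whether it was deleted in host cells. KO and CO below are the libraries labelled so. Among all barcodes, 61 occurred in more than 1 library, and 24 gated nuclei carried such a barcode.

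The gate was enriched for macrophages without being pure. The summed level of 14 macrophage identity genes was 1314 to 3335 CPM (UMIs per 1000000) in gated nuclei and 468 to 925 CPM in the other nuclei. Among these genes only Itgam (CD11b) was at 0, in both. Markers of tumor or mesenchymal cells (10 genes) still summed to 7590 to 12949 CPM in the gated nuclei of CO and 8180 to 19573 CPM in those of KO, highest in KO replicate 2, which also had the lowest macrophage identity level. A narrower gate of nuclei with at least 2 of the 3 genes (2533 nuclei) had macrophage identity levels of 2222 to 4095 CPM and tumor marker levels of 5911 to 15035 CPM. The gate genes also differed between libraries. In gated nuclei Cadm1 was at 809 CPM in KO replicate 3 and at 361 to 571 CPM elsewhere. Adgre1 was at 310 to 362 CPM in CO and 142 to 262 CPM in KO, a separation found for 11.7% of genes. Adgre1 or Csf1r was found in 692 of 861, 798 of 1014 and 521 of 642 gated nuclei in CO. In KO these were 1061 of 1379, 324 of 487 and 1053 of 1699. The part of this in the gated shares and levels was not tested. Results are for the wider gate, with the narrower one beside it.

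On GRCm38, Mrc1 lies on chromosome 2 (14229392 to 14332057, plus strand), Chil3 on chromosome 3 (106147554 to 106167564, minus), Cd163 on chromosome 6 (124304656 to 124330527, plus) and Msr1 on chromosome 8 (39581685 to 39642673, minus). Arg1 lies on chromosome 10 (24915221 to 24927484, minus), Nos2 on chromosome 11 (78920787 to 78960254, plus) and Stab1 on chromosome 14 (31139013 to 31168641, minus). Chromosome 16 carries both Cd86 (36603869 to 36666081, minus) and Retnla (48842551 to 48844461, plus). Exons of any transcript cover 6.21% of the 103 kb of Mrc1 and 5.88% of the 62.2 kb of Cd86, but 31.3% of the 1.91 kb of Retnla. Reads from introns add to nuclear counts where they are counted, and whether they were counted is not stated, so levels are compared between groups of nuclei and never between genes.

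Promoter sequences (RefSeq, GRCm38.p6) were at hand for 5 members, and 4 are shown because these genes separated in the counts. Mrc1 and Stab1 went together in the nuclei, whereas Chil3 went with monocyte genes and Retnla did not follow the macrophage gate. Each line is the 250 bases before the RefSeq start, and capitals mark the core motif GAGGAA of PU.1, the transcription factor that defines myeloid cells, on either strand.
Mrc1, chr2:14229164-14229413, plus strand: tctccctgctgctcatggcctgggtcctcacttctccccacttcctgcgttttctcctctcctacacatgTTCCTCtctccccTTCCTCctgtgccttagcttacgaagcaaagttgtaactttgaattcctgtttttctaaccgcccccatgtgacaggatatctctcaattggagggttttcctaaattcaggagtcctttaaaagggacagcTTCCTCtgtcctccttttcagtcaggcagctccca
Stab1, chr14:31168642-31168891, minus strand: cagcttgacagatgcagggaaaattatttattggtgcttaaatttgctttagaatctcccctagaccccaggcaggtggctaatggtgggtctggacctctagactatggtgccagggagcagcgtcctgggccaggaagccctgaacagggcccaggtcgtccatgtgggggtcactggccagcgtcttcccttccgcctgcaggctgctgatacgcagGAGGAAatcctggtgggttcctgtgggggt
Retnla, chr16:48842359-48842608, plus strand: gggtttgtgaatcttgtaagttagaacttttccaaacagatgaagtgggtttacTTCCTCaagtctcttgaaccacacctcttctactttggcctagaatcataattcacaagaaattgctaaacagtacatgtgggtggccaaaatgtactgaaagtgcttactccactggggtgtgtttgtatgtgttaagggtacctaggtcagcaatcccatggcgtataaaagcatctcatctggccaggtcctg
Chil3, chr3:106167565-106167814, minus strand: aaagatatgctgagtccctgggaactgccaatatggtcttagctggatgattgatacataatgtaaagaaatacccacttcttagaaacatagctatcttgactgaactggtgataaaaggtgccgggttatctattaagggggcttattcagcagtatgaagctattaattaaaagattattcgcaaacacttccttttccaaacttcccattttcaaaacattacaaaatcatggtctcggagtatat
The core stood 3 times before Mrc1 and 1 time each before Stab1 and Retnla, and its letters were absent before Chil3 and Cd163. It was present in 23.3% of 32851 promoters of the same length. The spaced motif TTCNNNNGAA bound by STAT6, the factor of interleukin-4 signaling, was found before Retnla among these 5 members and in 5.85% of all promoters. Both strands were searched, and a match describes the letters of the window and not a bound site.

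The first question was where the members were expressed. Mrc1, Msr1, Stab1 and Cd86 were macrophage genes in these tumors. Mrc1 was at 159 ± 54.8 CPM in gated and 10.8 ± 4.56 CPM in other nuclei (SD, n = 6 libraries), a log2 ratio of gated to other nuclei of 3.89 (SE 0.18, edgeR FDR 8.58e-09). Msr1, a class A scavenger receptor that takes up modified lipoproteins, was at 134 ± 62.9 against 11.7 ± 6.93 CPM, 12.1-fold higher. Stab1, a receptor that clears altered lipoproteins and matrix fragments, was at 101 ± 49.2 against 8.24 ± 3.90 CPM, 12.3-fold higher. Cd86, which gives T cells their second signal, was at 126 ± 43.8 against 16.1 ± 9.18 CPM, 8.46-fold higher. All 4 were higher in the gated nuclei of 6 of 6 libraries, with no overlap between gated and other nuclei.

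The remaining members followed the gate less or not at all. Chil3 (Ym1), a secreted chitinase-like lectin, was at 20.3 ± 35.4 CPM in gated and 5.14 ± 7.52 CPM in other nuclei, a log2 ratio of 1.83 (SE 0.23, edgeR FDR 3.08e-05). The narrower gate gave 0.63, which did not pass (edgeR FDR 0.106). Arg1, which cleaves arginine to ornithine and urea, was at 2.32 ± 1.60 against 0.952 ± 0.371 CPM, a log2 ratio of 1.26 (SE 0.33, edgeR FDR 0.00823) that did not pass with DESeq2 (FDR 0.0629), without KO replicate 1 (0.0752) or in the narrower gate (0.0685). Retnla (Fizz1, RELMα), a secreted protein of type 2 responses, was at 5.89 ± 5.06 CPM in gated and 6.33 ± 4.84 CPM in other nuclei, a log2 ratio of −0.13 (SE 0.16, edgeR FDR 0.629). Nos2 and Cd163 were too low to be tested. In all, 6 of the 7 members tested were called higher, against 11.6% of 13122 genes. In the narrower gate 4 of 7 were (Mrc1, Msr1, Stab1 and Cd86), against 14.2% of 12890 genes.

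The 4 accompanying lists behaved in the same comparison as follows. Of the inflammatory (M1-type) list, 11 of 19 genes tested were higher in gated nuclei and 0 lower, among them Tnf (log2 ratio 3.68), the inflammasome gene Nlrp3 (3.34), Il1b (2.76) and Irf5 (2.44). Of the alternative (M2-type) list, 10 of 18 were higher, among them the transcription factor genes Maf (3.30) and Pparg (3.18), the receptor gene Cd200r1 (3.23) and Il4ra (1.46), the interleukin-4 receptor chain. Klf4 was lower (−0.62). The medians were 1.24 for the inflammatory and 1.40 for the alternative list, against −0.05 over all genes. Among genes of arginine and nitric oxide metabolism, 1 of 8 (Arg2, 1.34) was higher, and among other scavenger and mannose receptors 2 of 7 (Clec4n, 3.18, and Scarb2, 0.77). Of all genes tested, 11.6% were called higher, and the 1 of 8 is near that share.

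A share of nuclei with a UMI depends on depth, and gated nuclei were shallower (median 1280.5 UMIs) than other nuclei (3471). Each nucleus was therefore thinned to 1000 UMIs, which left out 1921 shallower gated nuclei and kept 4161. Mrc1 was then detected in 20.2% of gated nuclei, Msr1 in 20.5%, Cd86 in 18.0% and Stab1 in 15.7%. Tumor-marker nuclei were those outside the gate with at least 2 tumor or mesenchymal markers, and more of these than of T or NK cell, endothelial or monocyte markers. In 8237 such nuclei, which should lack these genes, the corresponding shares were 0.704%, 0.838%, 0.862% and 0.498%. Those nuclei were the deeper ones before thinning, with a median of 4337 UMIs. Arg1 was detected in 0.216% of gated and 0.121% of tumor-marker nuclei, Nos2 in 0.0961% and 0.0486%, and Retnla in 0.793% and 0.643%. For these 3 the gated share stood near that of tumor-marker nuclei, and no expression by macrophages was read from it. Without thinning, tumor-marker nuclei outside the gate held 385 of the 547 Retnla UMIs. Their pooled level was 6.64 CPM, against 5.94 CPM in gated nuclei. Whether their share is a background level for Retnla was not tested. Chil3 was detected in 1.61% of gated and 0.449% of tumor-marker nuclei.

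**Figure D1:**
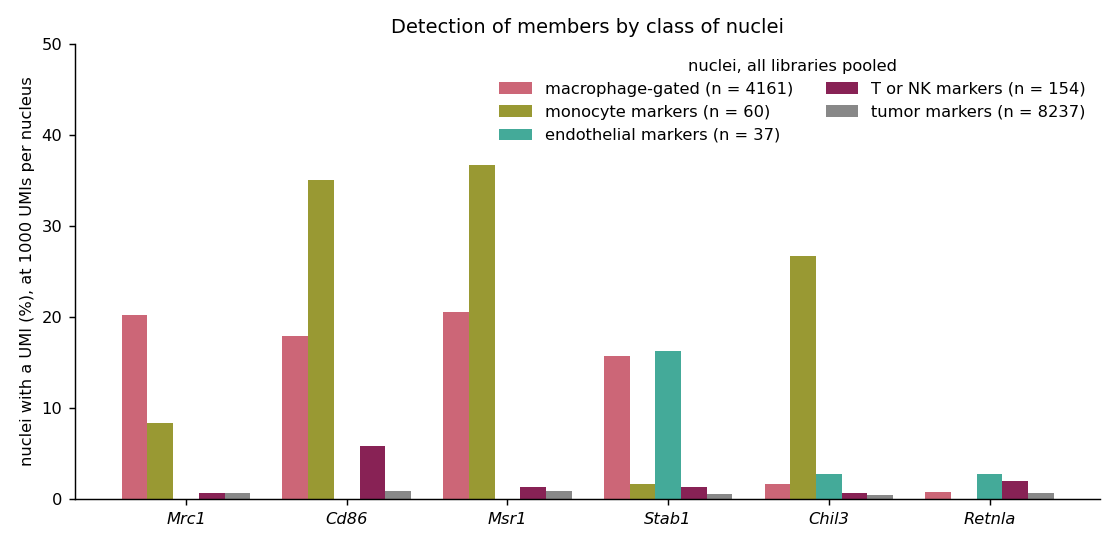
Share of nuclei (%, vertical axis, all libraries pooled, each nucleus thinned to 1000 UMIs) with at least 1 UMI of 6 members, in macrophage-gated nuclei and in 4 classes of nuclei outside the gate that carry at least 2 markers of the named cell type. A nucleus of a class also carried more markers of its class than of each other class. Cd86, Msr1 and Chil3 were detected most often in the 60 nuclei with monocyte markers, Mrc1 in gated nuclei, and Stab1 about equally in gated nuclei (15.7%) and in the 37 nuclei with endothelial markers (16.2%).

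Outside the gate, some members marked other cells. The classes used here held nuclei of at least 1000 UMIs and none of the gate genes. Each nucleus had at least 2 markers of its cell type, and more of these than of each other class. In 60 such nuclei with monocyte markers, Msr1 was detected in 36.7%, Cd86 in 35.0% and Chil3 in 26.7%, but Mrc1 in 8.33% and Stab1 in 1.67%. In 37 nuclei with endothelial markers, Stab1 was detected in 16.2% (6 nuclei), and Mrc1, Msr1 and Cd86 in 0, which allows a share of nuclei with a UMI of up to 8.11%. Stab1 is also a gene of sinusoidal endothelium, and non-gated nuclei with Stab1 had a summed level of 7 endothelial genes of 529 CPM against 217 CPM without it. These classes are small. Limits of this kind cover counting error only and bound nuclei with a UMI, not nuclei that express the gene.

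The level of Mrc1 varied with the gate genes a nucleus carried. Nuclei with Adgre1 and Cadm1 (1141 nuclei) had 272 ± 87.3 CPM of Mrc1 (SD over 6 libraries), nuclei with all 3 genes 254 ± 74.1 CPM, and nuclei with Csf1r alone 58.8 ± 12.6 CPM. The highest library of the Csf1r-only nuclei, at 79.4 CPM, lay below the lowest library of both other sets, which carry more gate genes. Mrc1 was at 126 ± 63.6 CPM with Adgre1 alone and 130 ± 62.0 CPM with Cadm1 alone. Their libraries (19.2 to 208 and 47.9 to 196 CPM) overlapped those of Csf1r alone (44.7 to 79.4 CPM). Stab1 and Msr1 were likewise lowest on average in Csf1r-only nuclei (41.3 ± 34.8 and 72.4 ± 63.7 CPM), but with libraries that overlapped the other sets. Cd86 was lowest there as well (75.5 ± 36.0 CPM), as was the macrophage identity level (1838 CPM, libraries pooled). Chil3 was the reverse. It was positive in 8.32% of the Csf1r-only nuclei and in 6.13% of nuclei with Adgre1 and Csf1r, and in 0.980% to 2.12% of all other gated sets. Of its 438 UMIs in gated nuclei, 268 were in the 829 Csf1r-only nuclei. KO replicate 1 carried 219 of these 268 UMIs and 107 of the 155 gated nuclei with Chil3. Without it, 3.33% of Csf1r-only and 0.721% of the remaining gated nuclei were positive. The CPM of Chil3 was higher in Csf1r-only nuclei in 5 of 6 libraries and lower in KO replicate 3 (1.75 against 2.17 CPM), and 3 of the 6 libraries had a single UMI there. These levels are a description, since nuclei of 1 library share their depth and free RNA.

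**Figure D2:**
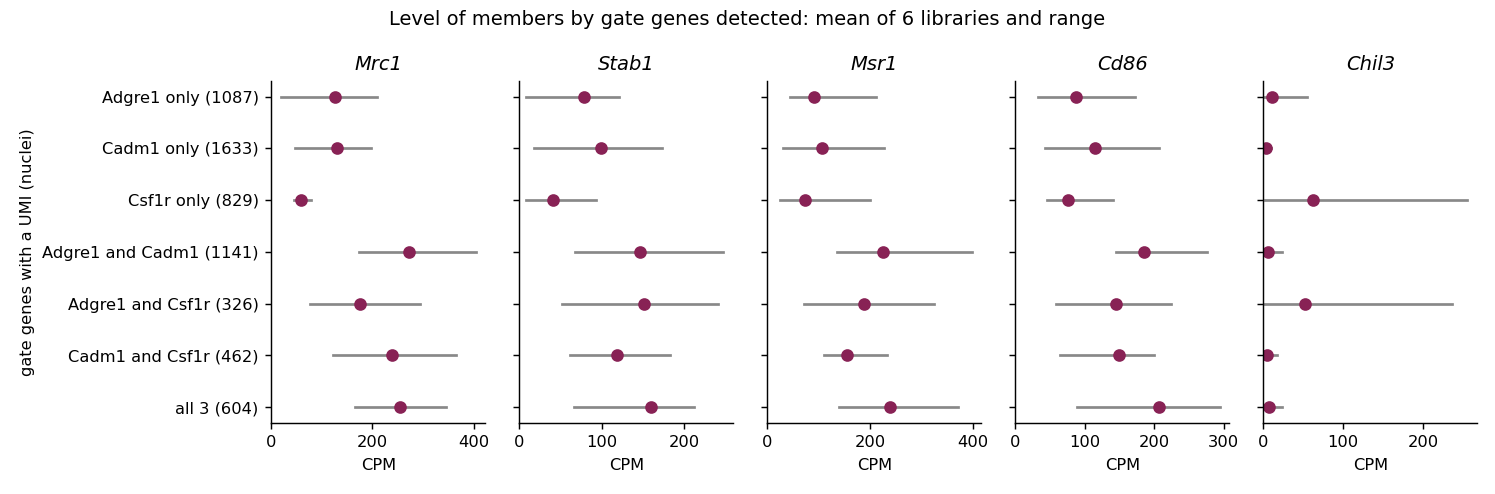
Level of 5 members (CPM, horizontal axes, which differ between panels) in gated nuclei split by which gate genes had a UMI, with the number of nuclei in parentheses. Points are means of 6 libraries and lines run from the lowest to the highest library. Mrc1 was lowest on average in Csf1r-only nuclei and Chil3 highest there.

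The next question was whether the members differed between KO and CO. A gene was called where FDR was at most 0.05 and the log2 ratio at least 0.58 in size. No member was called in gated nuclei, where edgeR called 0 of 11537 genes (0.0%). Without adjustment 675 genes had a p below 0.05. DESeq2 called 2 genes, no member among them. Of the 6 members that passed the filter on low counts, 0 were without overlap between the groups, against 11.7% of all genes. Arg1, Nos2 and Cd163 did not pass that filter.

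Mrc1 had 172, 171 and 234 CPM in CO and 179, 91.5 and 103 CPM in KO. KO replicates 2 and 3 lay below all CO libraries and KO replicate 1 lay within them. The log2 KO/CO ratio was −0.62 (SE 0.29, edgeR FDR 0.654). Stab1 had 90.2, 141 and 132 CPM in CO and 149, 34.1 and 57.8 CPM in KO (log2 KO/CO −0.59, SE 0.49, edgeR FDR 0.664). Here too KO replicates 2 and 3 were the lowest libraries, and KO replicate 1 was the highest of all 6.

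Cd86 had 131, 132 and 112 CPM in CO and 195, 64.1 and 118 CPM in KO (log2 KO/CO 0.01, SE 0.36, edgeR FDR 0.988). The KO libraries spread on both sides of the CO libraries. Msr1 had 103, 148 and 84.2 CPM in CO and 252, 127 and 93.3 CPM in KO (log2 KO/CO 0.50, SE 0.39, edgeR FDR 0.659). The groups overlapped except for KO replicate 1. In nuclei with at least 2 gate genes the log2 KO/CO ratios were −0.40 for Mrc1, −0.55 for Stab1, 0.09 for Cd86 and 0.61 for Msr1, none of them called.

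The secreted members were uneven between libraries. Chil3 had 4.85, 19.8 and 1.60 CPM in CO and 91.0, 1.66 and 2.18 CPM in KO, so that 613 of its 811 UMIs over all nuclei were in KO replicate 1. Its log2 KO/CO ratio was 1.85 (SE 1.45, edgeR FDR 0.659) with this library and −2.14 (SE 0.97, FDR 0.152) without it. Retnla had 4.85, 10.4 and 1.60 CPM in CO and 13.5, 2.50 and 2.18 CPM in KO (log2 KO/CO 0.11, SE 0.85, edgeR FDR 0.956). Its ratio was −1.29 without KO replicate 1 and 0.91 without CO replicate 2. KO replicate 1 was the highest of all 6 libraries for 7 members, and CO replicate 3 was the highest for Mrc1 and Cd163.

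**Figure D3:**
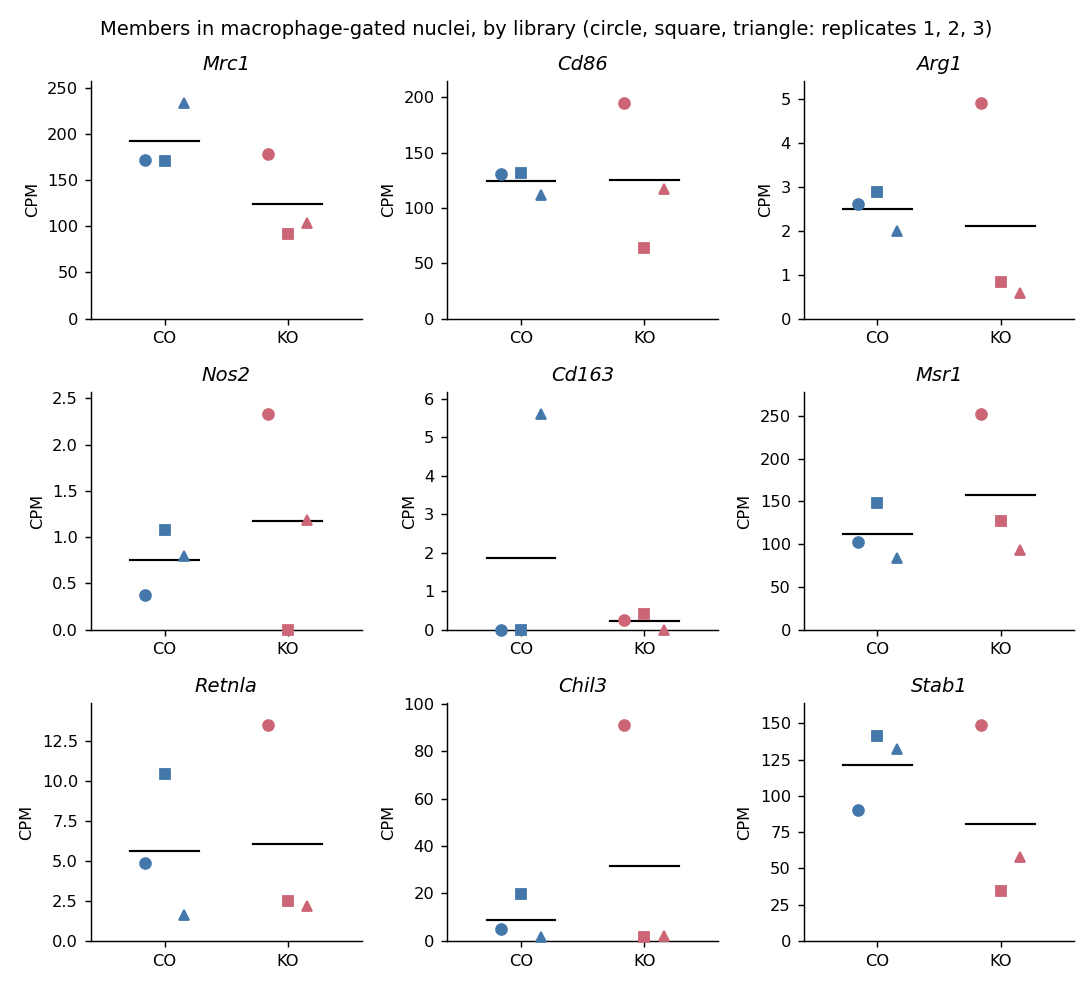
Level of the 9 members (CPM, vertical axes from 0, which differ between panels) in macrophage-gated nuclei of each library. Blue points are CO, red points KO, the marker shape gives the replicate number and the line the group mean (n = 3). KO replicate 1 (red circle) lay above the other KO libraries for 8 members, all but Cd163, and the groups overlapped for all 9.

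Leaving out KO replicate 1 changed the calls. With 3 CO and 2 KO libraries, edgeR called 1252 of 11733 genes (10.7%), of which 780 (6.65%) were lower in KO. Mrc1 was then lower in KO (log2 KO/CO −0.98, SE 0.20, edgeR FDR 0.0432), as was Stab1 (−1.37, SE 0.28, FDR 0.0432), and Cd86 (−0.44, FDR 0.235) and Msr1 (−0.03, FDR 0.949) were not called. Of 17 inflammatory genes tested, Il1b was called lower (−1.53), and of 17 alternative genes, 0 were called. The same 2 KO libraries had the highest tumor marker levels in gated nuclei (19573 and 14605 CPM, with CO replicate 3 at 12949 CPM next), and KO replicate 2 had the lowest macrophage identity level. The part of these markers in the lower Mrc1 and Stab1 was not tested. Leaving out KO replicate 2 instead gave −0.45 for Mrc1 and −0.23 for Stab1 (FDR 0.999 each), and leaving out KO replicate 3 gave −0.50 and −0.39 (FDR 0.912 each). In bulk sums of this kind fewer macrophages among the gated nuclei and less RNA per macrophage cannot be told apart.

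At 1000 UMIs per nucleus, Mrc1 was detected in 24.2 ± 4.41% of gated nuclei of CO libraries against 17.1 ± 4.79% of KO libraries (mean ± SD, n = 3 per group, exact permutation p 0.3). The 13 values tested per library in this way gave Benjamini-Hochberg adjusted p of at least 0.812, and 0.1 is the smallest p that 3 against 3 libraries allow. The CO and KO shares were 18.3 ± 3.78% and 12.6 ± 7.66% for Stab1 (exact permutation p 0.3), 17.6 ± 0.522% and 17.2 ± 4.63% for Cd86 (p 0.9) and 17.0 ± 3.18% and 22.2 ± 8.86% for Msr1 (p 0.5). Without thinning, Mrc1 was detected in 31.8 ± 6.05% and 22.5 ± 6.49%. The spread between KO libraries was larger than that between CO libraries for all 4.

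The 4 lists showed no call between KO and CO in gated nuclei either. Of the inflammatory list 8 of 17 genes had positive and 9 negative log2 ratios (median −0.09, FDR 0.654 to 0.946), and of the alternative list 6 and 11 (median −0.06), against a median of −0.01 over all genes. The lowest ratios in the inflammatory list were those of Ccl5 (−1.10, SE 0.84), a chemokine of T cells and myeloid cells, and Il1b (−0.92, SE 0.48), and the highest those of Acod1 (0.58, SE 0.50), which makes itaconate, and Ptgs2 (0.38, SE 0.26). In gated against other nuclei Il1b (log2 ratio 2.76) and Acod1 (1.24) were called higher, and Ccl5 (−0.07) and Ptgs2 (−0.47) were not. In the alternative list the highest and lowest were F13a1 (1.41, SE 0.87), the coagulation factor XIII A chain, Gas6 (0.48, SE 0.52), Pdcd1lg2 (−1.09, SE 0.43), which encodes PD-L2, and the lipid receptor gene Trem2 (−0.46, SE 0.48). F13a1 was another gene of 1 library, with 121 CPM in KO replicate 1 and 12.1 to 24.1 CPM in the other 5.

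Arginine enters both nitric oxide and ornithine, and its transport and use are background to Arg1 and Nos2. Of 7 such genes tested, 0 were called. Slc7a2, an arginine transporter, had 6.34, 5.04 and 11.6 CPM in CO and 22.0, 13.3 and 13.1 CPM in KO (log2 KO/CO 1.08, SE 0.39, edgeR FDR 0.654). All KO libraries lay above all CO libraries, a separation of the groups found for 11.7% of genes in either direction. Cd80, named after its values were seen, was the only other gene of the 4 lists without overlap (162 ± 12.5 against 208 ± 26.7 CPM). Neither gene was called higher in gated than in other nuclei (log2 ratio 0.25, edgeR FDR 0.410, for Slc7a2 and −0.36, FDR 0.00017, for Cd80). Ass1 and Asl, which rebuild arginine from citrulline, had log2 ratios of −0.57 and −0.45, and Arg2 of 0.09. In the list of other scavenger and mannose receptors (7 tested) the outermost values were 0.52 for Cd36, 0.42 for Mrc2 and −0.14 for Scarb2. Over all nuclei, edgeR called 0 of 13658 genes between KO and CO (0.0%, with 672 at an unadjusted p below 0.05 and 14 called by DESeq2), and the log2 KO/CO ratios of the 8 members tested ran from −0.31 for Mrc1 to 1.56 for Chil3.

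Within single nuclei, the question was whether Mrc1 and Cd86, one marker from each side, fell on the same nuclei. At 1000 UMIs, 18.5 ± 2.44% of gated nuclei in CO had Mrc1 without Cd86, 11.9 ± 1.71% had Cd86 without Mrc1 and 5.64 ± 2.11% had both. In KO the shares were 13.1 ± 3.15%, 13.3 ± 3.37% and 3.96 ± 1.70%. Neither gene was detected in 63.9 ± 2.70% and 69.7 ± 7.71%. The share with both did not differ beyond the spread between libraries (exact permutation p 0.4).

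**Figure D4:**
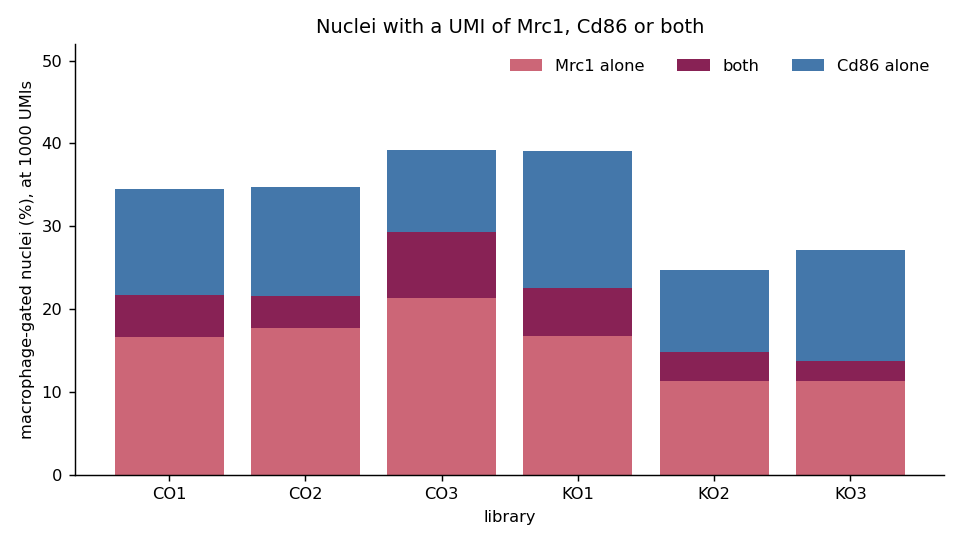
Share of macrophage-gated nuclei (%, vertical axis, thinned to 1000 UMIs) with a UMI of Mrc1 alone, of both genes, or of Cd86 alone, stacked for each of the 6 libraries. KO replicates 2 and 3 had the smallest shares of Mrc1 alone (11.3% each), and every library had nuclei with both.

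The number with both genes was compared with what independent detection would give. The CO libraries gave ratios of the number found to that number of 1.31, 1.06 and 1.52 (mean 1.30 ± 0.228). The KO libraries gave 1.15, 1.79 and 1.14 (mean 1.36 ± 0.374), with an exact permutation p of 0.8 for n = 3 per group. The counts behind these ratios were 12 to 59 nuclei per library. In the narrower gate the ratios ran from 0.894 to 1.37 around a mean of 1.10, above 1 in 4 of 6 libraries. The wider gate still held nuclei with tumor markers, and the part of gate purity in these ratios was not tested. Pairs of scavenger receptors had higher mean ratios. Mrc1 and Stab1 had a mean of 1.69 in the wider and 1.37 in the narrower gate, Mrc1 and Msr1 1.65 and 1.34, and Msr1 and Stab1 1.73 and 1.46. Cd86 with Msr1 had 1.61 and 1.35, and Cd86 with Stab1 1.56 and 1.26. Some of these ratios rest on few nuclei. In KO replicate 2 and the wider gate, 3.72 nuclei were expected with Mrc1 and Stab1 and 8 were found, a ratio of 2.15. For Cd86 and Stab1 these values were 3.35, 9 and 2.69, against ratios of 1.15 to 1.63 in the other libraries. All 6 pairs were above 1 in 6 of 6 libraries in the wider gate.

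**Figure D5:**
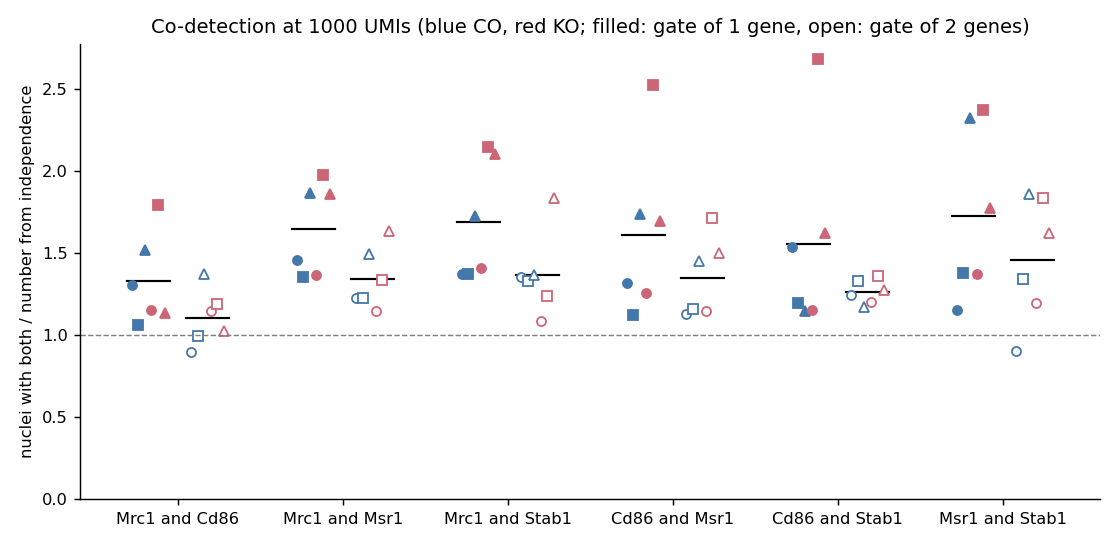
Nuclei with both genes of a pair divided by the number expected from independence (vertical axis), for the 6 pairs of Mrc1, Cd86, Msr1 and Stab1 at 1000 UMIs per nucleus. Blue symbols are CO and red KO libraries, the shape gives the replicate number, filled symbols are the wider gate, open symbols the narrower gate, and the black line is the mean of 6 libraries. Mrc1 with Cd86 lay closest to 1 (dashed line).

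Taking the 2 surface markers together as a balance, Mrc1 gave 56.8%, 56.4% and 67.6% of the summed Mrc1 and Cd86 UMIs in CO and 47.8%, 58.8% and 46.7% in KO. The means were 60.3 ± 6.37% and 51.1 ± 6.70% (SD, n = 3, exact permutation p 0.3). KO replicate 2 lay within the CO libraries, and the other KO libraries lay below them. The difference was −9.17 percentage points, and −6.79 in the narrower gate (exact permutation p 0.4).

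The summed counts of positive and negative gated nuclei were then compared within libraries for each member with enough positive nuclei (at least 20 in every library), which held for Mrc1, Cd86, Msr1 and Stab1. In all 4 splits the positive nuclei had more of the macrophage identity genes and less of the tumor markers. Macrophage identity summed to 3436 against 2263 CPM with and without Mrc1, 3426 against 2270 CPM for Cd86, 3522 against 2203 CPM for Msr1 and 3400 against 2326 CPM for Stab1. Tumor markers summed to 8644 against 12962 CPM for Mrc1, 9463 against 12685 CPM for Cd86, 8964 against 12956 CPM for Msr1 and 8033 against 12931 CPM for Stab1. The part of these differences in the splits was not tested, and the narrower gate is given beside each.

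Nuclei with Mrc1 (1566 of 6082, unthinned) had more Stab1 (181 ± 59.6 against 71.7 ± 38.5 CPM, log2 ratio 1.37, SE 0.12), Msr1 (1.31, SE 0.13) and Cd86 (0.74, SE 0.10), all called by edgeR (FDR 1.09e-08, 1.13e-07 and 3.47e-06) and higher in 6 of 6 libraries. Of the 5 other members tested, 3 were thus higher, against 5.83% of 11199 genes. With at least 2 gate genes the values were 0.72 for Stab1 and 0.71 for Msr1, both called, and 0.22 for Cd86, not called (FDR 0.388), where 0.443% of genes were called higher. Thinning each nucleus to 1000 UMIs turned the 653 genes higher and 197 lower in Mrc1-positive nuclei into 230 and 620, and left Stab1 at 1.00 and Msr1 at 0.89, both called, and Cd86 at 0.42, under the fold limit. For the Cd86, Msr1 and Stab1 splits described next, 565 and 162, 584 and 186, and 445 and 129 genes became 127 and 563, 237 and 592, and 165 and 472.

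Chil3 was called lower in Mrc1-positive nuclei (7.70 ± 10.1 against 25.6 ± 46.7 CPM, log2 ratio −1.71, SE 0.34, edgeR FDR 0.000674), as were 1.76% of genes, yet it was higher there in 3 of 6 libraries. DESeq2 gave −0.44 (FDR 0.803), and without KO replicate 1 Chil3 was too low to be tested. In Stab1-positive nuclei its log2 ratio was −1.13 (edgeR FDR 0.0125, with 1.13% of genes called lower), and neither DESeq2 (−0.76, FDR 0.426) nor the fit without CO replicate 2 (−0.86, FDR 0.106) called it.

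Of the alternative list, 7 of 15 genes were higher in Mrc1-positive nuclei, among them F13a1 (1.71), Maf (1.44), Trem2 (0.99) and Il4ra (0.80). Of the inflammatory list, 4 of 17 were higher (Nlrp3, 1.37, Gbp5, 0.87, Irf5, 0.77, and Il1b, 0.58) and Ptgs2 was lower (−0.58). The medians were 0.76 and 0.30, against −0.04 over all genes. With at least 2 gate genes, 1 gene of each list was called, Maf and Nlrp3. The genes most like Mrc1, by the size of their log2 ratio, were Fcrls (1.95, SE 0.18), an Fc receptor-like gene of resident macrophages, Bank1 (1.81), F13a1 (1.71), the palmitoyltransferase gene Zdhhc14 (1.60) and Nxpe5 (1.54). All 5 were higher in 6 of 6 libraries, and all but F13a1 (FDR 0.0534) were also called in the narrower gate.

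Nuclei with Cd86 (1481) had more Msr1 (log2 ratio 0.99, SE 0.14), Mrc1 (0.74, SE 0.08) and Stab1 (0.63, SE 0.10), 3 of 5 members tested, against 4.94% of 11426 genes called higher. With at least 2 gate genes Msr1 (0.60) was called, as were 0.524% of genes, and Mrc1 (0.25, FDR 0.199) and Stab1 (0.25, FDR 0.249) were not. After thinning Msr1 (0.79) was called, and Mrc1 (0.45) and Stab1 (0.43) were under the fold limit. Of the inflammatory list 9 of 18 genes were higher, among them Acod1 (1.53), Cxcl9 (1.28), Il1b (1.27), Cd40 (1.22), Gbp5 (1.22) and Tnf (1.04), and 5 of 16 (Cd40, Il1b, Tnf, Cxcl9 and Gbp5) were also called in the narrower gate. Ass1 was higher as well (0.59, FDR 0.0107), a call lost in the narrower gate (0.72, FDR 0.102). Of the alternative list, 5 of 16 were higher, among them F13a1 (0.99), and 1 of 14 in the narrower gate. The genes most like Cd86 were Cd83 (1.92, SE 0.15), a maturation marker of antigen-presenting cells, Themis (1.61) and Tmem163 (1.47), Plek (1.51) and the decoy interleukin-1 receptor gene Il1r2 (1.46). Tmem163 was not called after thinning (0.43, FDR 0.486), nor was Il1r2 in the narrower gate (FDR 0.0736). Themis acts in T cell signaling and could not be tested after thinning. Marker levels of other cells were higher in Cd86-positive than in Cd86-negative gated nuclei, at 175 against 86.6 CPM for 8 T or NK cell genes, 242 against 140 CPM for 6 monocyte genes and 67.8 against 47.3 CPM for 7 dendritic cell genes. Their part in the Cd86 split was not tested.

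Nuclei with Msr1 (1570) had more Mrc1 (1.28, SE 0.09), Stab1 (1.13, SE 0.11) and Cd86 (0.78, SE 0.12), 3 of 6 members tested, against 5.02% of 11636 genes. Genes of both lists were higher, 6 of 17 inflammatory (Nlrp3, 1.38, Il1b, 1.02, and Tnf, 0.99, among them) and 7 of 17 alternative (F13a1, 1.34, Maf, 1.05, and Il4ra, 1.03, among them), and 1 gene of each was lower (Gbp2, −0.65, and Klf4, −0.72). In the narrower gate 1 of 16 inflammatory genes (Il1b) and 0 of 12 alternative genes were called. The arginine transporter gene Slc7a2 was higher as well (0.73, SE 0.23, FDR 0.0266), but not called in the narrower gate (0.60, FDR 0.575). The most alike were Tfec (1.60, SE 0.17), a transcription factor gene of myeloid cells, the NAD hydrolase gene Cd38 (1.47), Zfp991 (1.46), Bank1 (1.44) and Nxpe5 (1.42), of which Nxpe5 was not called in the narrower gate (FDR 0.0928). With at least 2 gate genes, where 0.104% of genes were called higher, no other member was called, and Mrc1 at 0.54 (FDR 0.00904) was under the fold limit. In the wider gate after thinning, Mrc1 (0.97), Stab1 (0.96) and Cd86 (0.81) were called. Leaving out single libraries added a call for Arg1 without CO replicate 1 (1.74, edgeR FDR 0.0239) and for Chil3 without CO replicate 2 (0.73, FDR 0.0236).

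Nuclei with Stab1 (1321) had more Mrc1 (1.29, SE 0.12), Msr1 (1.27, SE 0.13) and Cd86 (0.67, SE 0.12), 3 of 6 members tested, against 3.89% of 11450 genes. Mrc1 (0.82) and Msr1 (0.80) were also called in the narrower gate, where 0.298% of genes were called higher. In the wider gate after thinning, Mrc1 (0.96) and Msr1 (0.88) were called, and Cd86 (0.54) was under the fold limit. Of the alternative list 6 of 16 were higher, F13a1 (1.42), Gas6 (1.02) and Maf (1.02) foremost, and of the inflammatory list 1 of 17 (Nlrp3, 1.21). In the narrower gate 0 of 13 alternative and 0 of 16 inflammatory genes were called, and the inflammatory median went from 0.14 to −0.13, with 12 of 16 genes negative. Slc7a2 was again higher (0.95, FDR 0.0223), and again not called in the narrower gate (0.77, FDR 0.402). The most alike were Igfbp7 (1.73, SE 0.30), Fcrls (1.44, SE 0.19), F13a1 (1.42), Igfbp3 (1.39) and the complement-related receptor gene Cd93 (1.37). Igfbp7 and Igfbp3 were higher in 4 of 6 libraries and were not called by DESeq2 (FDR 0.418 and 0.658), nor was F13a1 (FDR 0.0877). In the narrower gate F13a1, Igfbp3 and Cd93 were not called (FDR 0.0814, 0.203 and 0.272). Both Igfbp genes are also expressed in vessels, and the 7 endothelial markers summed to 175 CPM in Stab1-positive and 188 CPM in Stab1-negative gated nuclei.

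The 5 rarer members were few enough to describe nucleus by nucleus. Cd163, the hemoglobin scavenger receptor, had 22 UMIs in all libraries. A single gated nucleus of CO replicate 3 held 14 of them. CO replicates 1 and 2 and KO replicate 3 had 0 in gated nuclei, which allows shares of nuclei with a UMI of up to 0.348%, 0.296% and 0.177%.

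Nos2, the inducible nitric oxide synthase, had 49 UMIs, of which 21 were in gated nuclei: 1, 3 and 2 in CO and 9, 0 and 6 in KO. In KO replicate 2 the 0 among 487 gated nuclei allows a share of nuclei with a UMI of up to 0.616%. The 19 gated nuclei with Nos2 had 904 CPM of the 7 endothelial genes against 180 CPM in gated nuclei without it, and 26.3% of them (5 nuclei) against 2.06% had at least 2 endothelial genes. Their median depth was 2608 against 1279 UMIs, and the part of depth in these shares was not tested. Their macrophage identity level was 1590 against 2560 CPM. Outside the gate the 25 nuclei with Nos2 likewise had 735 against 224 CPM of endothelial genes.

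Arg1 had 102 UMIs, 44 of them in gated nuclei: 7, 8 and 5 in CO and 19, 2 and 3 in KO. The 40 gated nuclei with Arg1 were deep, with a median of 8239.5 UMIs against 1277 in those without it, and their macrophage identity level was 1577 against 2575 CPM. Only 2 of them had more than 1 UMI. In the subset thinned to 1000 UMIs the share with Arg1 was 0.287 ± 0.249% in CO and 0.131 ± 0.228% in KO (n = 3 per group, exact permutation p 0.4).

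Retnla had 547 UMIs and was the one member of the 7 tested that was not higher in gated nuclei. In all libraries together, gated nuclei held 19365093 UMIs of all genes and other nuclei 60096054. Between 15.0% and 36.7% of the Retnla UMIs in a library lay in gated nuclei. Of the rest, 39 UMIs were in a single nucleus of KO replicate 1 and 30 in a single nucleus of CO replicate 2, both outside the gate and with 7906 and 10276 UMIs in all. The next highest nucleus held 6.

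Chil3 was found with monocyte genes. The 155 gated nuclei with Chil3 had 792 CPM of 6 monocyte genes against 147 CPM in gated nuclei without it, and 42.6% of them against 4.71% had at least 2 monocyte genes. Their median depth was 1239 against 1282 UMIs. Without KO replicate 1, which held 107 of the 155, the monocyte level was 706 against 130 CPM, and it was higher with Chil3 in 5 of 6 libraries, all but KO replicate 3 (104 against 113 CPM). The nuclei with most Chil3 held 34 UMIs in KO replicate 1 and 24 in CO replicate 2. Outside the gate the pooled level was 382 against 49.0 CPM in 222 nuclei with Chil3. KO replicate 1 held 165 of those 222 nuclei, and this level was not compared by library. The gated nuclei of KO replicate 1, the library with most Chil3, also had the highest monocyte level, 277 CPM, against 54.2 to 202 CPM in the other 5. The part of monocytes in the Chil3 of that library was not tested.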

How the data were processed

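Nuclei of frozen TC1 tumors were sequenced with the Chromium 3′ v3.1 kit in 3 MCT2 CO and 3 MCT2 KO libraries. Per the labels, the authors aligned reads to GRCm38 with Cell Ranger 3.0.2 (the file headers name 3.1.0) and used Seurat 5.2.1, and the matrices were deposited as raw UMI counts for each gene in each nucleus. All values are whole numbers, so no correction for free RNA is visible in them, although the study describes one. Selected samples received extra washes, and which ones is not stated. Libraries held 13252572 to 22057084 UMIs.

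Nuclei with 100 to 7500 genes and under 20% mitochondrial UMIs were kept (18014 of 18865). The doublet caller of scanpy 1.11.5 (Scrublet) marked only 11 by its automatic threshold, so its highest-scoring nuclei were removed at 0.8% per 1000 barcodes (500), which left 17514. Raw counts were summed per library and tested over all genes with edgeR 4.0.16 (R 4.3.3, quasi-likelihood F-test, TMM, low-count filter, a log2 ratio of at least 0.58 in size and adjusted p at most 0.05). SE is the log2 ratio divided by the square root of F. The study's per-nucleus Seurat tests were not used, because nuclei are not replicates, and DESeq2 on summed counts, which the study also ran, was kept as an alternative. Values per library were compared by two-sided exact permutation tests (scipy 1.17.1, Python 3.11.15). Splits by a member had the library as a block. Each script's tests were checked on simulated counts.

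Members and lists were chosen with earlier results of these data known. Named beside the members were, from each list, at most 2 genes with the highest and 2 with the lowest KO/CO ratio, and the 5 genes most alike to each splitting member with at least 20 CPM in positive nuclei. List genes named in other comparisons were chosen after their values were seen. No libraries were copies of each other (chi-square per degree of freedom 2.84 to 44.8). Alternatives were DESeq2 1.42.0, other size factors, no low-count filter, stricter nucleus filters (at least 500 genes, under 5% mitochondrial UMIs), no doublet removal, other gates and depths, leaving out each library, a block on replicate number and, chosen after seeing the data, removal of barcodes shared by libraries and Chil3 by library and without KO replicate 1.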

Additional observations from a re-analysis of the deposited data

How the results depend on the processing

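Over 63 results, 668 of 751 alternative values kept direction and side of the threshold, and 48 turned direction. In gated nuclei DESeq2 called 2 genes between KO and CO, leaving out single libraries gave 0 to 1252, the highest without KO replicate 1, and over all nuclei DESeq2 called 14. With at least 2 gate genes, 2949 genes differed between gated and other nuclei, and the splits by Mrc1, Cd86, Msr1 and Stab1 gave 52, 77, 23 and 42. The Stab1 split gave 356 (without CO replicate 3) to 695 genes. In the Cd86 split Stab1 fell under the fold limit without KO replicate 2 (0.57), as did Cd86 in the Stab1 split (0.54). Where not stated otherwise, the cause was not tested.

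The replicate numbers were not taken as pairs. Deviations of same-numbered libraries from their group means correlated at 0.468, −0.409 and 0.310, and CO replicate 3 correlated best with KO replicate 2. With 3 libraries per group these correlations depend on each other and cannot exclude a pairing. With a replicate block edgeR called 0 genes, in gated and in all nuclei, and 2 ratios turned, Cd86 in gated nuclei to −0.11 and Nos2 in all nuclei to −0.0142.

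Values near 0 turned most. Stricter nucleus filters gave −0.0525 for Cd86 and −0.21 for Retnla (log2 KO/CO) and −5.55 percentage points for the gated share, which was −2.88 with Adgre1 or Csf1r alone and −1.81 with at least 2 gate genes. Those same 2 gates gave detection differences of 0.0980 and 1.43 points for Cd86, the latter gate 0.0252 for Arg1 and 0 for Cd163, and the former −0.0678 for the Mrc1 and Cd86 co-detection ratio. Thinning to 500 UMIs gave 0.113 for Arg1, 0.125 for Retnla and −0.231 for that ratio, and no thinning 0.0407 for Cd163. In the splits, Retnla in Mrc1-positive nuclei was −0.00156 without the low-count filter, and Chil3 in Cd86-positive nuclei was 0.28 with at least 2 gate genes and 0.49 when thinned.

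Leaving out each library in turn gave these ranges of the log2 KO/CO ratio in gated nuclei: −0.44 to 0.33 for Cd86, −0.0273 to 0.78 for Msr1, −1.29 to 0.91 for Retnla and −2.14 to 3.28 for Chil3. Over all nuclei they were −0.53 to 0.10 for Mrc1, −1.22 to 0.20 for Arg1, −0.20 to 0.87 for Nos2, −1.11 to 0.87 for Retnla, −1.93 to 3.05 for Chil3 and −0.72 to 0.18 for Stab1. Retnla ran from −0.23 to 0.21 in the Mrc1 split and from −0.45 to 0.31 in the Cd86 split, where Chil3 ran from −0.18 to 0.0604. The gated share ran from −5.80 to 7.24 points, detection of Cd86 from −2.96 to 1.53, of Cd163 from −0.0780 to 0.0328 and of Chil3 from −0.566 to 1.85 points, and the co-detection ratio from −0.151 to 0.176. The counts of Arg1, Nos2 and Cd163 in gated nuclei did not pass the low-count filter of the KO to CO comparison, and the part of depth in this was not tested.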
